A study of Mus musculus with 6 samples.

Results

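The miR-125 family was followed in brain cortex from adult males, with and without a working Fmr1 gene. The family was taken as the 5 mature products miR-125a-5p, miR-125a-3p, miR-125b-5p, miR-125b-1-3p and miR-125b-2-3p, picked by name out of 1182 miRNAs in the count table. All 5 had enough reads to be among the 541 miRNAs tested. Small RNA was sequenced from 6 libraries of whole brain cortex, 3 labelled fmr1 KO (KO below) and 3 labelled fmr1 WT (WT below), from untreated males matched for age. The series describes its design as one of siblings, and the labels give no age, strain, allele or litter. Whether each library came from its own animal is not said, so p-values measure the spread between these libraries, which may be partly technical. The Fmr1 messenger RNA is not measured in a small RNA library, so the knockout itself could not be checked in these data.

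MicroRNAs (miRNAs) are short RNAs that guide Argonaute proteins to messenger RNAs and lower their translation or stability. Each is cut from a hairpin precursor whose arms can give a 5p and a 3p product, and targets are chosen mainly through the seed, bases 2 to 8 from the 5′ end. The miR-125 family descends from lin-4, the founding miRNA of nematode developmental timing, and is abundant in neurons and glia. FMRP, the RNA-binding protein encoded by Fmr1, has been linked to both branches in earlier work. With FMRP, miR-125a-5p was reported to repress the message of PSD-95, a scaffold of the postsynaptic density, and miR-125b-5p that of the NMDA receptor subunit NR2A. The comparison of KO with WT asks whether the amounts of these miRNAs differ when FMRP is absent.

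The products are shown first because their shared seed defines the family and their few differences decide which reads can be told apart. Sequences are those of RefSeq on GRCm38.p6, written 5′ to 3′ with the seed in capitals. The last is miR-351-5p, the other miRNA of the table found to carry the seed of the 5p products, among 970 table entries with a sequence.
miR-125a-5p: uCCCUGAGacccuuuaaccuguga
miR-125b-5p: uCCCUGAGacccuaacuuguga
miR-125a-3p: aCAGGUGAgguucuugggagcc
miR-125b-1-3p: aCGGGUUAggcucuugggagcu
miR-125b-2-3p: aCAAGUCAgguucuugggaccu
miR-351-5p: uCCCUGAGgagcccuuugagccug

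Both 5p products begin with the same 13 bases. Thereafter miR-125a-5p holds 2 additional bases and differs from miR-125b-5p by C19U, counted from the 5′ end of miR-125a-5p. With miR-351-5p the shared start ends after 8 bases. The 3p products have 3 different seeds, and 0 other miRNAs of the table with a sequence carry any of these. Against miR-125a-3p, miR-125b-2-3p has 4 substitutions (G4A, G7C, G20C and C22U), and miR-125b-1-3p also has 4 (A3G, G7U, U11C and C22U). The 3p products therefore tell the 2 miR-125b hairpins apart, whereas miR-125b-5p is identical from both.

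Hairpins are shown for Mir125a and Mir125b-1, with both mature products in capitals, to display how the arms face each other.
Mir125a: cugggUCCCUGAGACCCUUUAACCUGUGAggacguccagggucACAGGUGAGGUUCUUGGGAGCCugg
Mir125b-1: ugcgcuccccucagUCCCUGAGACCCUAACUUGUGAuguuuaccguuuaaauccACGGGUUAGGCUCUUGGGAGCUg

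Each miR-125 hairpin lies downstream of a miR-99 or miR-100 hairpin and a let-7 hairpin, a linkage conserved in animals. Mir125a (GRCm38, chr17:17830812-17830879, plus strand) overlaps an exon of Spaca6, a protein-coding gene of the same strand, and follows Mir99b and Mirlet7e within 0.555 kb. Mir125b-1 (chr9:41581926-41582002, plus strand) lies in an intron of the noncoding gene 3110039I08Rik and in an exon of the sense-intronic transcript Gm28119, 50.42 kb from Mir100. Mir125b-2 (chr16:77646273-77646343, plus strand) lies in an intron of the noncoding host gene Mir99ahg and in an exon of C130023A14Rik, 47.27 kb from Mir99a. Mir351 (chrX:53053255-53053353, minus strand) overlaps 0 host genes in the GENCODE M21 annotation.

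Libraries held 11182888 to 15733876 miRNA reads. Levels are given as CPM (reads per 1000000 miRNA reads), here with library totals corrected for composition (TMM scale). Summed levels of 5 neuronal miRNAs were 106052 to 121283 CPM in KO and 117425 to 130437 CPM in WT. Most of each sum was miR-128-3p, at 90401 to 105751 CPM in KO and 99654 to 111884 CPM in WT. KO replicate 3 was the lowest library for miR-128-3p and the highest for the list members miR-124-3p and miR-138-5p. The sum therefore does not stand for each neuronal miRNA. For 4 miRNAs of the Hox clusters, which mark hindbrain and spinal cord, sums were 54.4 to 100.5 CPM in KO and 67.14 to 74.78 CPM in WT. Of these, miR-196a-5p and miR-196b-5p were not detected in every library. KO replicate 3 stood farthest from the mean of WT, with a root mean square difference of 0.859 log2 units, against 0.523 to 0.566 in the other KO libraries and 0.321 to 0.376 for WT libraries against the other WT libraries. In that library 6 choroid plexus miRNAs summed to 2112 CPM, against 970.2 to 1044 CPM in the 5 others. A set of 8 epithelial and olfactory miRNAs summed to 61.62, 2051 and 1996 CPM in KO and 169.2 to 723.8 CPM in WT. Its member miR-141-3p was not detected in every library.

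None of the 5 products (mmu-miR-125a-5p, mmu-miR-125a-3p, mmu-miR-125b-5p, mmu-miR-125b-1-3p and mmu-miR-125b-2-3p in the table) changed with genotype at the threshold of 0.05 for adjusted p. All values below are CPM on the TMM scale, which corrects library totals for composition, and fold changes compare KO with WT by the quasi-likelihood test of edgeR, adjusted over 541 miRNAs. This test called 0% of tested miRNAs (0 of 541), DESeq2 and limma-voom called 0 as well, and 6.47% had an unadjusted p below 0.05, where the family had 0 of 5. Without KO replicate 3 edgeR called 3.21% of tested miRNAs (18 of 560), of which 0 were miR-125 products, and with any other library left out it called 0. The smallest adjusted p in the family was 0.769. Log2 fold changes ran from -0.20 to 0.14, with 3 values above and 2 below 0 and a median of 0.01, beside a median of 0.03 over all tested miRNAs.

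The guide strand miR-125b-5p was the most abundant product, at 5123, 5458 and 5279 CPM in the KO and 6294, 6037 and 5824 CPM in the WT libraries. Each KO library lay below each WT library, as did KO for 10.5% of tested miRNAs, and groups of either order were separate for 15.7%. The means were 5287 ± 168 CPM in the KO and 6052 ± 235.4 CPM in the WT libraries (mean ± SD of 3), so KO held 87.4% of the WT level. Its fold change of -0.20 on the log2 scale (SE 0.13, 95% interval -0.48 to 0.09) did not pass the test (edgeR adjusted p = 0.769, lower in 3 of 3 KO libraries). The separation of the groups depended on the scaling: on library totals KO replicate 3 reached 5727 CPM and WT replicate 3 5628 CPM, so that they overlapped. With DESeq2 size factors the groups stayed separate, at 4968 to 5565 CPM in KO and 5730 to 6251 CPM in WT. Of 9 lists of cell type markers, only that of microglia and leukocytes was also separate on the TMM scale, and the groups overlapped for every other list. The sum of its miRNAs was higher in KO, at 194 to 218.3 CPM against 169.9 to 180.4 CPM in WT. All 5 of 5 were detected, 0 of them at 0 in any library, but the sum does not show whether each was higher. Among them miR-146a-5p was called without KO replicate 3 (log2 fold change 0.60, edgeR adjusted p = 0.0383), where 3.21% of all tested miRNAs were called. The part of microglia and leukocytes in the difference of miR-125b-5p was not tested. In a bulk sample, fewer cells of a type and less RNA per cell cannot be told apart.

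Levels of miR-125b-5p varied little within a group on the TMM scale. Its SD of log2 CPM was 0.0458 in KO, where 1.29% of tested miRNAs had a lower SD, and 0.0561 in WT, where 13.1% did. Over all tested miRNAs the median SD was 0.396 in KO and 0.14 in WT. On library totals the coefficient of variation of miR-125b-5p in KO was 12.6%, against 3.18% on the TMM scale. The fold change had an SE smaller than all but 0.185% of tested miRNAs, and its interval spans a level in KO between 0.716 and 1.07 times that in WT.

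The guide strand of the other branch, miR-125a-5p, had 1048, 863.6 and 1274 CPM in the KO and 1156, 972.9 and 1036 CPM in the WT libraries. KO replicates 2 and 3 lay below and above every WT library, and the groups overlapped. Means were 1062 ± 205.4 CPM in the KO and 1055 ± 93 CPM in the WT libraries (mean ± SD of 3), with a fold change on the log2 scale of 0.01 (SE 0.18, interval -0.41 to 0.42, edgeR adjusted p = 0.993). That interval allows a KO level of 0.755 to 1.34 times WT, and the sign of this value turned with limma-voom (-0.0053). Without KO replicate 3 the log2 fold change was -0.13 (edgeR adjusted p = 0.672).

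**Figure D1:**
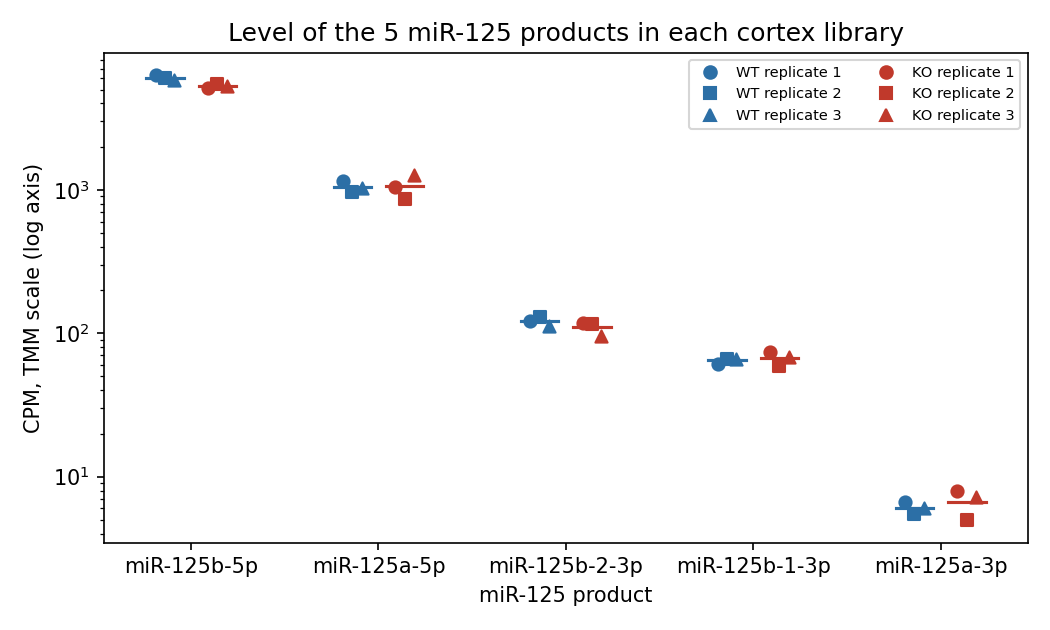
Level of the 5 miR-125 products in CPM on the TMM scale (log axis), with a point for each of the 3 WT (blue) and 3 KO (red) libraries and a line at each group mean. The products keep a fixed order from miR-125b-5p at 5123 to 6294 CPM down to miR-125a-3p at 4.962 to 7.916 CPM, and KO and WT points overlap for all but miR-125b-5p.

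The 3p products, usually degraded after the duplex is unwound, were far less abundant. From the chromosome 16 hairpin, miR-125b-2-3p had 117.7, 115.6 and 96.11 CPM in the KO and 120.8, 129.9 and 113 CPM in the WT libraries. The groups overlapped, with KO replicate 3 the lowest library, and the log2 fold change was -0.14 (SE 0.19, edgeR adjusted p = 0.86), or -0.04 without that library and -0.23 without KO replicate 2. From the chromosome 9 hairpin, miR-125b-1-3p had 73.91, 58.7 and 68.82 CPM in the KO and 60.95, 66.62 and 66.49 CPM in the WT libraries. Here KO replicate 1 was the highest and KO replicate 2 the lowest of the 6, and the log2 fold change was 0.05 (SE 0.18, edgeR adjusted p = 0.925). The scarcest product, miR-125a-3p, had 7.916, 4.962 and 7.171 CPM in the KO and 6.619, 5.521 and 6.05 CPM in the WT libraries, from 59 to 116 reads per library. KO values again lay on both sides of WT, and the log2 fold change was 0.14 (SE 0.25, 95% interval -0.42 to 0.70, edgeR adjusted p = 0.882). It ran from 0.0145 without KO replicate 1 to 0.27 without KO replicate 2.

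Between products the order of levels was the same in all 6 libraries: miR-125b-5p, miR-125a-5p, miR-125b-2-3p, miR-125b-1-3p and miR-125a-3p. By mean CPM they ranked 26, 56, 140, 175 and 336 of 1182. No neighbours in this order overlapped across libraries, the closest being the 3p products of the miR-125b hairpins, at 96.11 to 129.9 and 58.7 to 73.91 CPM. One read spans a whole miRNA, so CPM carries no length term, but adaptor ligation and PCR can favour some sequences, which was not measured here. Of family reads, miR-125b-5p took 80.97% ± 2.79 of them in KO libraries and 82.93% ± 0.681 in WT libraries, and miR-125a-5p 16.23% ± 2.81 and 14.43% ± 0.833 (SD, n = 3 each). All 3p products together took 2.817% ± 0.289 and 2.633% ± 0.165. The family as a whole made up 0.654% ± 0.103 of miRNA reads in KO libraries and 0.736% ± 0.0527 in WT libraries.

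The third carrier of the seed, X-linked miR-351-5p, was scarce. It had 9.964, 10.01 and 5.605 CPM in the KO and 11.08, 12.22 and 12.43 CPM in the WT libraries, or 68 to 189 reads per library. All KO libraries lay below all WT libraries, as KO did for 10.5% of tested miRNAs, with KO replicate 3 the lowest. Its fold change of -0.48 on the log2 scale (SE 0.26, 95% interval -1.08 to 0.12) did not pass the test (edgeR adjusted p = 0.749), and without KO replicate 3 it was -0.24. Among the 3 miRNAs with this seed, 0 were called, as were 0 of all 541 tested.

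**Figure D2:**
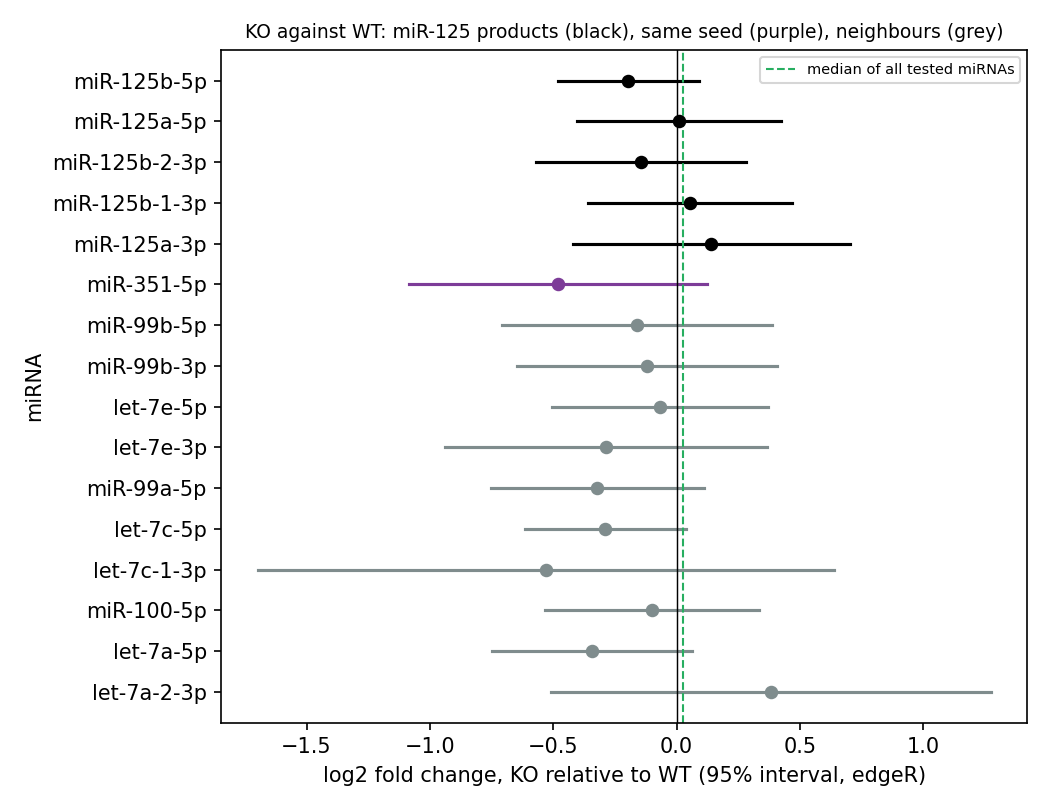
Log2 fold change of KO relative to WT with 95% intervals from edgeR, for the 5 miR-125 products (black), miR-351-5p (purple) and tested miRNAs of the shared clusters (grey), with the median of all tested miRNAs as a dashed line at 0.03. Every interval drawn includes 0, and that of miR-125b-5p, from -0.48 to 0.09, is the narrowest.

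Ratios of reads within a library need no scaling between libraries, and 7 of them were compared, with the summed family level as an eighth measure. Exact two-sided permutation tests of 3 against 3 libraries cannot go below 0.1, and p-values were adjusted over 8 measures. The 5p products stood at 4.89, 6.32 and 4.14 reads of miR-125b-5p for each read of miR-125a-5p in KO and 5.44, 6.21 and 5.62 in WT. KO spanned a wider range than WT on both sides, and the difference in mean log2 ratio was -0.19 (2.33 ± 0.307 for KO, 2.52 ± 0.098 for WT, mean ± SD of 3 libraries, exact permutation p = 0.5, adjusted 0.8). That difference was -0.05 without KO replicate 3 and -0.35 without KO replicate 2.

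Arm usage of Mir125a was nearly constant, with 1 exception. Reads of miR-125a-5p outnumbered those of miR-125a-3p 174-, 175- and 170-fold in WT, and 132-, 173- and 177-fold in KO. The low ratio belongs to KO replicate 1, which had 116 reads of miR-125a-3p, with an exact 95% Poisson interval of 95.9 to 139 reads that covers counting error alone. The difference in mean log2 ratio was -0.12 (exact permutation p = 0.8, adjusted 1). Of 128 miRNAs named by both a 5p and a 3p arm that each had a mean of at least 1 CPM, 65 had the 5p arm higher, and 8 had a higher ratio of 5p to 3p than miR-125a (166 from mean CPM).

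For miR-125b the 5p reads outnumbered the sum of both 3p products 26.7-, 31.3- and 32-fold in KO and 34.6-, 30.7- and 32.4-fold in WT. KO replicate 1 was again the lowest (difference in mean log2 ratio -0.12, exact permutation p = 0.4, adjusted 0.8). The product of the chromosome 16 hairpin exceeded that of chromosome 9, with 1.59, 1.97 and 1.4 reads of miR-125b-2-3p per read of miR-125b-1-3p in KO and 1.98, 1.95 and 1.7 in WT. The ratio was above 1 in 6 of 6 libraries, and the groups overlapped (difference in mean log2 ratio -0.20, exact permutation p = 0.3, adjusted 0.8).

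The summed level of the family was 6370, 6501 and 6724 CPM in the KO and 7638, 7213 and 7045 CPM in the WT libraries. The groups did not overlap on the TMM scale, and the difference in mean log2 level was -0.16 (exact permutation p = 0.1, the smallest this test can give, adjusted 0.8, lower in 3 of 3 KO libraries). They overlapped on library totals, where KO libraries held 5373 to 7295 CPM and WT libraries 6808 to 7861 CPM, and with DESeq2 size factors.

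**Figure D3:**
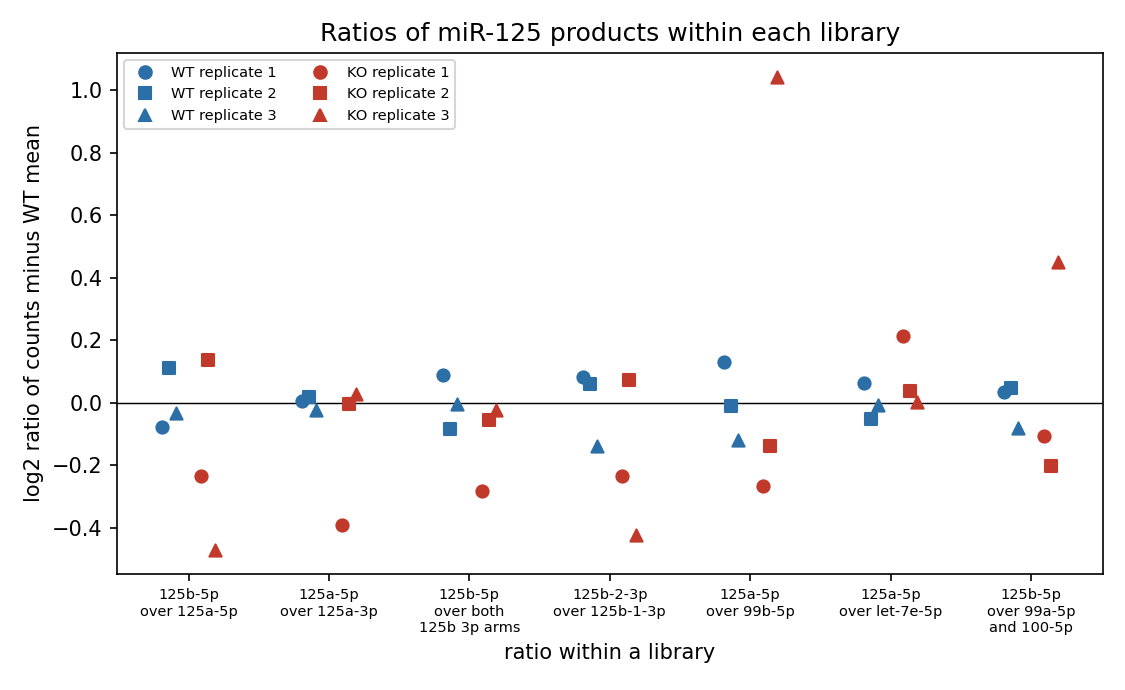
Log2 ratios of reads between miRNAs of the same library, each minus its WT mean, for the 7 ratios named on the horizontal axis, with points for 3 WT (blue) and 3 KO (red) libraries. KO replicate 3 is the highest library in the ratios to miR-99b-5p and to miR-99a-5p plus miR-100-5p. The same library is the lowest in the ratios of miR-125b-5p to miR-125a-5p and of miR-125b-2-3p to miR-125b-1-3p. KO replicate 1 is the lowest library in the ratio of miR-125a-5p to miR-125a-3p.

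The miR-99, miR-100 and let-7 miRNAs of the shared clusters were compared next. The hairpins of miR-99b, let-7e and miR-125a lie together on chromosome 17, yet their products did not move together in every library. In log2 units relative to the WT mean, miR-125a-5p stood at -0.01, -0.29 and 0.27 in KO replicates 1, 2 and 3. For let-7e-5p, a let-7 guide strand of developmental timing, the values were -0.22, -0.32 and 0.27. For miR-99b-5p, whose family targets the growth regulator mTOR, they were 0.26, -0.15 and -0.77, so that KO replicate 3 was the lowest library for this product and the highest for the other two.

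Reads of miR-125a-5p per read of miR-99b-5p were 0.127, 0.139 and 0.315 in KO and 0.167, 0.152 and 0.14 in WT. KO replicate 3 exceeded the 5 others, and the groups overlapped (difference in mean log2 ratio 0.21, exact permutation p = 1). Leaving out that library turned the difference to -0.20, with both remaining KO libraries below WT. To let-7e-5p the ratio was 1.63, 1.44 and 1.4 in KO and 1.46, 1.35 and 1.39 in WT, a narrower range (difference 0.08, exact permutation p = 0.4, adjusted 0.8).

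The miR-99a and miR-100 neighbours on chromosomes 16 and 9 were likewise low in KO replicate 3. Levels of miR-99a-5p were 18754, 23804 and 14259 CPM in the KO and 24181, 23528 and 23262 CPM in the WT libraries. Levels of miR-100-5p were 21648, 22184 and 14038 CPM in the KO and 20821, 19275 and 21866 CPM in the WT libraries. KO replicate 3 was the lowest of the 6 libraries for each. These 2 miRNAs differ by A16U, counted from the 5′ end of miR-100-5p, so reads with an error at that base could be assigned to the wrong one.
miR-100-5p: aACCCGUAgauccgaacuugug
miR-99a-5p: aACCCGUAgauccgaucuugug

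Per read of miR-99a-5p and miR-100-5p together there were 0.127, 0.119 and 0.187 reads of miR-125b-5p in KO and 0.14, 0.141 and 0.129 in WT. KO replicate 3 was highest and the other KO libraries lowest (difference in mean log2 ratio 0.05, exact permutation p = 1, and -0.15 without KO replicate 3). The chromosome 16 let-7 product, let-7c-5p, which a second hairpin on chromosome 15 also encodes, had 4998, 5382 and 4236 CPM in the KO and 6194, 5742 and 5921 CPM in the WT libraries. Its groups did not overlap, and its log2 fold change of -0.29 (SE 0.14) did not pass the test (edgeR adjusted p = 0.749).

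**Figure D4:**
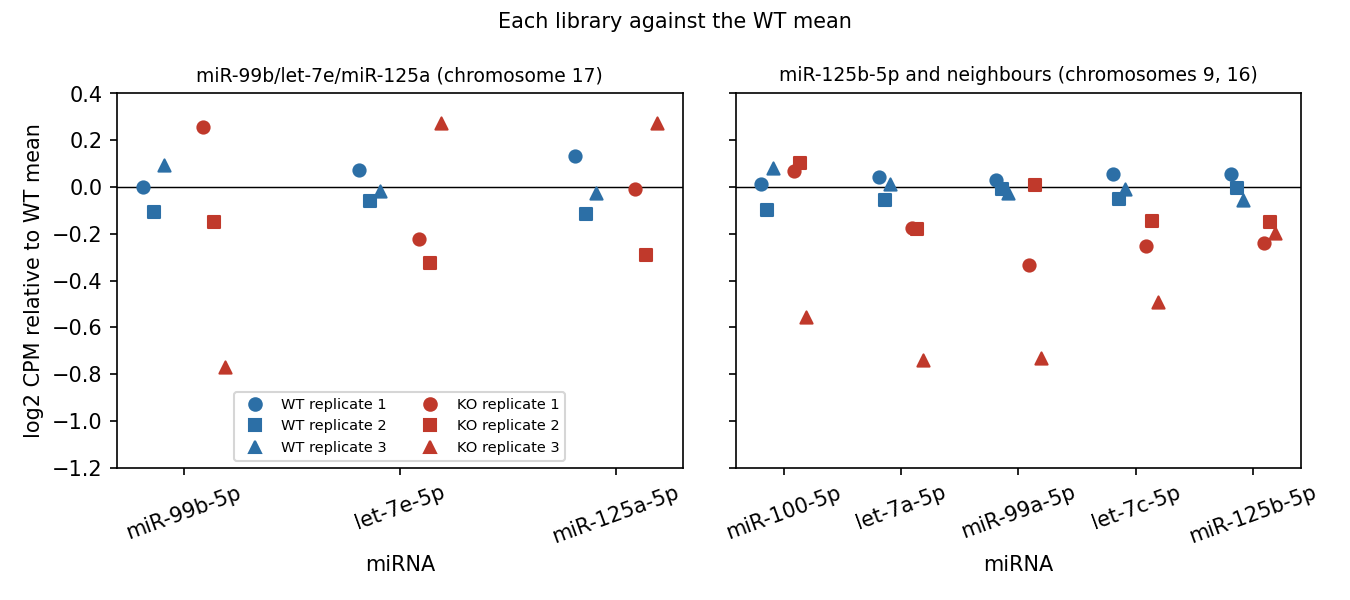
Log2 CPM of each library relative to the WT mean for miR-99b-5p, let-7e-5p and miR-125a-5p of chromosome 17 (left) and for miR-125b-5p with cluster neighbours of chromosomes 9 and 16 (right), WT in blue and KO in red. KO replicate 3 (triangle) lies 0.27 above the WT mean for miR-125a-5p and let-7e-5p and 0.77 below it for miR-99b-5p, while the 3 KO points of miR-125b-5p lie within -0.24 to -0.15.

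Of 12 products from the neighbouring hairpins, 10 were tested, and 0 were called (0% of all tested miRNAs were). Values in KO were lower for 9 and higher for 1 of the 10, against 257 lower and 284 higher over all tested miRNAs. The list's median log2 fold change was -0.22, beside 0.03 over all tested miRNAs. With 1 library left out the list's median lay between -0.34 (without KO replicate 2) and -0.08 (without KO replicate 3). Groups did not overlap for 2 of the 10, against 15.7% of all tested. The higher value was that of let-7a-2-3p, the passenger strand of a chromosome 9 hairpin, at 1.16, 1.682 and 2.72 CPM in the KO and 1.573, 1.472 and 1.184 CPM in the WT libraries. Without KO replicate 3 the values of miR-99b-5p, miR-99b-3p and miR-100-5p lay above WT, at log2 fold changes of 0.08, 0.0016 and 0.10, and let-7e-5p did so without KO replicate 1 (0.02) or 2 (0.02).

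A list of 12 miRNAs linked to FMRP or synaptic messages in earlier work, chosen without the miR-125 products, had 12 tested members. Of these, 5 had higher and 7 lower values in KO, against 284 higher and 257 lower over all tested miRNAs. In the list 0 were called (0% of all tested miRNAs were), and its median log2 fold change was -0.10, beside 0.03 over all tested miRNAs. The sign of the list's median turned without KO replicate 1 (0.06), and without WT replicate 2 it was -0.0014. Activity-induced miR-132-3p, which was found with miR-125b in FMRP complexes, had 1063, 965 and 1632 CPM in the KO and 1208, 1193 and 1190 CPM in the WT libraries. KO replicate 3 was highest, the other KO libraries were lowest, and the log2 fold change was 0.03 (SE 0.21, edgeR adjusted p = 0.97). Neuron-specific miR-124-3p showed the same order of KO libraries, at 1354, 1297 and 2118 CPM in KO against 1796, 1829 and 1611 CPM in WT. The largest fold change of the list was that of miR-148a-3p (19386, 20678 and 7120 CPM in KO, 9496, 11311 and 12126 CPM in WT). On the log2 scale its fold change was 0.52 (edgeR adjusted p = 0.769), and without KO replicate 3 it was 0.88 and passed (edgeR adjusted p = 0.00504). It was the 1 called member of the list in that fit, which called 3.21% of all tested miRNAs.

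The miRNAs whose pattern over the 6 libraries was most like that of a guide strand were found by the root mean square difference of log2 CPM after centring each miRNA. For miR-125a-5p they were miR-350-5p (0.0696 log2 units), miR-421-3p (0.0794), let-7e-5p (0.0852), miR-674-5p (0.0998) and miR-3099-3p (0.0999), beside a median of 0.366 over tested miRNAs. Of these let-7e-5p alone is a cluster neighbour. Within the family, miR-125a-3p stood at 0.147, miR-125b-1-3p at 0.167, miR-125b-5p at 0.209 and miR-125b-2-3p at 0.277. For miR-125b-5p the nearest were let-7b-5p (0.0608), miR-758-3p (0.0777), miR-338-5p (0.0813), miR-344-3p (0.0824) and miR-708-5p (0.0882), beside a median of 0.331. Its nearest family member was miR-125b-2-3p, at 0.114 and place 23.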

How the data were processed

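The authors deposited whole-number read counts per mature miRNA and, per the file headers, TPM values. The deposited TPM values equal counts divided by the column total and multiplied by 1000000, to within 4.9e-10, and served an alternative test. The submitters' processing notes name Bowtie, DESeq2 and the build mm10. The sources used here do not give trimming, strand or how reads that match several miRNAs were handled, so reads shared by family members may be split in an unknown way. Genotype came from the labels, and replicate numbers follow accession order. There were 0 columns of no sample.

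The tests ran under edgeR 4.0.16 (R 4.3.3): filterByExpr (minimum count 10), TMM scaling (factors 0.8265 to 1.092), robust quasi-likelihood test, Benjamini-Hochberg adjustment over 541 miRNAs, threshold 0.05. Alternatives used DESeq2 1.42.0 and limma 3.58.1. Ratios had 0.5 added to each count. The procedure was also run on simulated data. The changes planted there were larger than the log2 fold changes of the family, so power at the family's sizes was not tested. No library looked like a duplicate: within a genotype, chi-square per degree of freedom was 47.7 or more.

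The members and lists were chosen with earlier results of these data known. Named were all members, miRNAs with their seed, members of the neighbour and FMRP-linked lists, and the 5 nearest in pattern to each guide strand. The neighbour list at first held let-7c-2-3p, of chromosome 15 and not used here, in place of let-7c-1-3p; the replacement was made after the data were seen. Examples from the lists were chosen after their values were seen. Of 9 lists of cell type markers, summed levels not given in the results were 632.1 to 873.8 CPM in KO and 856.8 to 973.6 in WT (oligodendrocyte), 80.32 to 120.6 and 75.43 to 83.41 (erythroid), 38479 to 44550 and 35220 to 42562 (endothelial and mural), and 210.8 to 289.2 and 221.7 to 238.1 (muscle).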

Additional observations from a re-analysis of the deposited data

How the results depend on the processing

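No paired analysis was possible because the labels give no replicate numbers, litters or batches that tie a KO to a WT library. Over other scalings (DESeq2 size factors, library totals, TMM without the 5 most abundant miRNAs), no count filter, DESeq2, limma-voom and limma on log2(TPM + 1), 0 members were called, and 0 of all tested miRNAs. With each library left out 0 members were called as well, while over all tested miRNAs 18 of 560 were called without KO replicate 3 and 0 without any other library. The log2 fold change of miR-125b-5p stayed between -0.22 and -0.16 over these and between -0.26 and -0.16 with a library left out. That of miR-125a-5p was -0.0053 by limma-voom and -0.0254 by limma on log2(TPM + 1), and ran from -0.1280 to 0.1035 with a library left out. With a library left out, that of miR-125b-1-3p ran from -0.0073 to 0.1002, that of miR-125b-2-3p from -0.2292 to -0.0395, and that of miR-125a-3p from 0.0145 to 0.2712. Among neighbours, left-out libraries gave -0.4146 to 0.0818 for miR-99b-5p, -0.3515 to 0.0016 for miR-99b-3p, -0.2554 to 0.0205 for let-7e-5p and -0.2641 to 0.1024 for miR-100-5p. Ratio differences ran from -0.3531 to -0.0487 for miR-125b-5p over miR-125a-5p, -0.1704 to -0.0408 over both miR-125b 3p products, -0.3288 to -0.0807 for miR-125b-2-3p over miR-125b-1-3p, -0.1980 to 0.0130 for miR-125a-5p over miR-125a-3p, -0.2019 to 0.4525 over miR-99b-5p, 0.0189 to 0.1255 over let-7e-5p, and -0.1546 to 0.1716 for miR-125b-5p over miR-99a-5p plus miR-100-5p. Calls among FMRP-linked miRNAs ran from 0 to 1, the 1 (miR-148a-3p) without KO replicate 3, where 3.21% of all tested miRNAs were called. Their median ran from -0.1173 to 0.0574. The neighbours' median ran from -0.2657 to -0.1252 over the other settings. The neighbour list as first written had 9 tested members, 8 with lower values, and a median log2 fold change of -0.16, again with 0 calls. That median ran from -0.3025 to -0.0342 with a library left out. Depth is lowest among the 5 members for miR-125a-3p, at 59 to 116 reads, and lower still for the neighbours let-7a-2-3p (17 to 33) and let-7c-1-3p (6 to 29).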
